A study of Drosophila melanogaster with 58 samples.

Results

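Crystal cells were followed through 3 of their genes, lz, PPO1 and PPO2, in Drosophila melanogaster embryos that had gained or lost gcm. Probes were taken by the gene symbol of the platform annotation. This gave 4 probes, 2 for lz and 1 each for PPO1 and PPO2, of 23808 on the array, of which 13455 named a single gene and together stood for 11663 genes. Probe sequences and the position of a probe in its gene are not used here, so cross-hybridisation between the related PPO genes was not tested.

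Crystal cells are blood cells of the embryo and larva that arise, with the phagocytic plasmatocytes, from the head mesoderm. They store prophenoloxidases, copper enzymes that are released at wounds, where they are cleaved and drive the oxidation of phenols that ends in melanin. The RUNX transcription factor Lozenge, the product of lz, works with the GATA factor Serpent to direct crystal cell fate and activates prophenoloxidase genes. The transcription factor encoded by gcm is known as a switch for glial fate and as a factor of plasmatocyte development, and it is expressed in the early blood cell primordium.

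For the gain of function, the Gal4 line MZ1060 was crossed to the UAS-gcm line B5446, and the offspring embryos were set against a pool of equal mRNA from both parental lines at each of stages 9 to 16, on 33 arrays. The tissues in which MZ1060 drives expression are not given in the sources used here. In the loss-of-function experiment, homozygous gcmN7-4 embryos, recognised by the absence of balancer GFP in an embryo sorter, were set against OregonR embryos at stages 10, 11, 12, 13, 14 and 16, on 25 arrays. The balancer carried Kr-GFP up to stage 13 and Ubi-GFP from stage 14. Eggs of both experiments were laid at 25 °C and developed at 29 °C or 18 °C. Each stage had 4 arrays, or 5 at gain-of-function stage 14 and loss-of-function stage 10, and both dye orientations. The design text calls them independent experiments, and p-values measure the spread between these arrays. RNA came from whole embryos, so fewer crystal cells and less RNA per crystal cell cannot be told apart. Mutant and OregonR embryos came from different stocks, so the gcm mutation and other differences between the stocks cannot be told apart either.

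Every value is a log2 ratio of perturbed over wild type, centred on the array's median over all probes, so 0 means the ratio of a typical probe and -1 means a level 2-fold lower. An array measured between 10822 and 23253 probes, and 3 arrays lacked over 40% of them, namely replicate 1 of stage 9 and replicate 2 of stage 14 with ectopic gcm, and replicate 4 of mutant stage 11. The files hold ratios without intensities, so the level of a gene in either RNA is not given here. The RNA of gcm itself averaged 1.35 ± 0.10 (SE, n = 33) with ectopic gcm and -0.95 ± 0.12 (n = 25) in the mutants. It was not called as raised at gain-of-function stages 9 (0.13, adjusted p = 0.876) and 10 (0.92, adjusted p = 0.0548). Nor was it called as lowered at loss-of-function stages 12 (-0.30, adjusted p = 0.66) and 13 (-0.63, adjusted p = 0.181). A probe was called where the Benjamini-Hochberg adjusted p of the moderated limma fit was under 0.05.

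Both prophenoloxidase genes fell in gcm mutants, and both also fell, by less, in embryos with ectopic gcm. PPO2 averaged 4.69-fold lower in the mutants and PPO1 2.93-fold lower, against 1.48-fold and 1.7-fold lower with ectopic gcm. The regulator lz was not called in either average, at either of its probes. The plot of every array shows the 3 genes side by side.

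**Figure D1:**
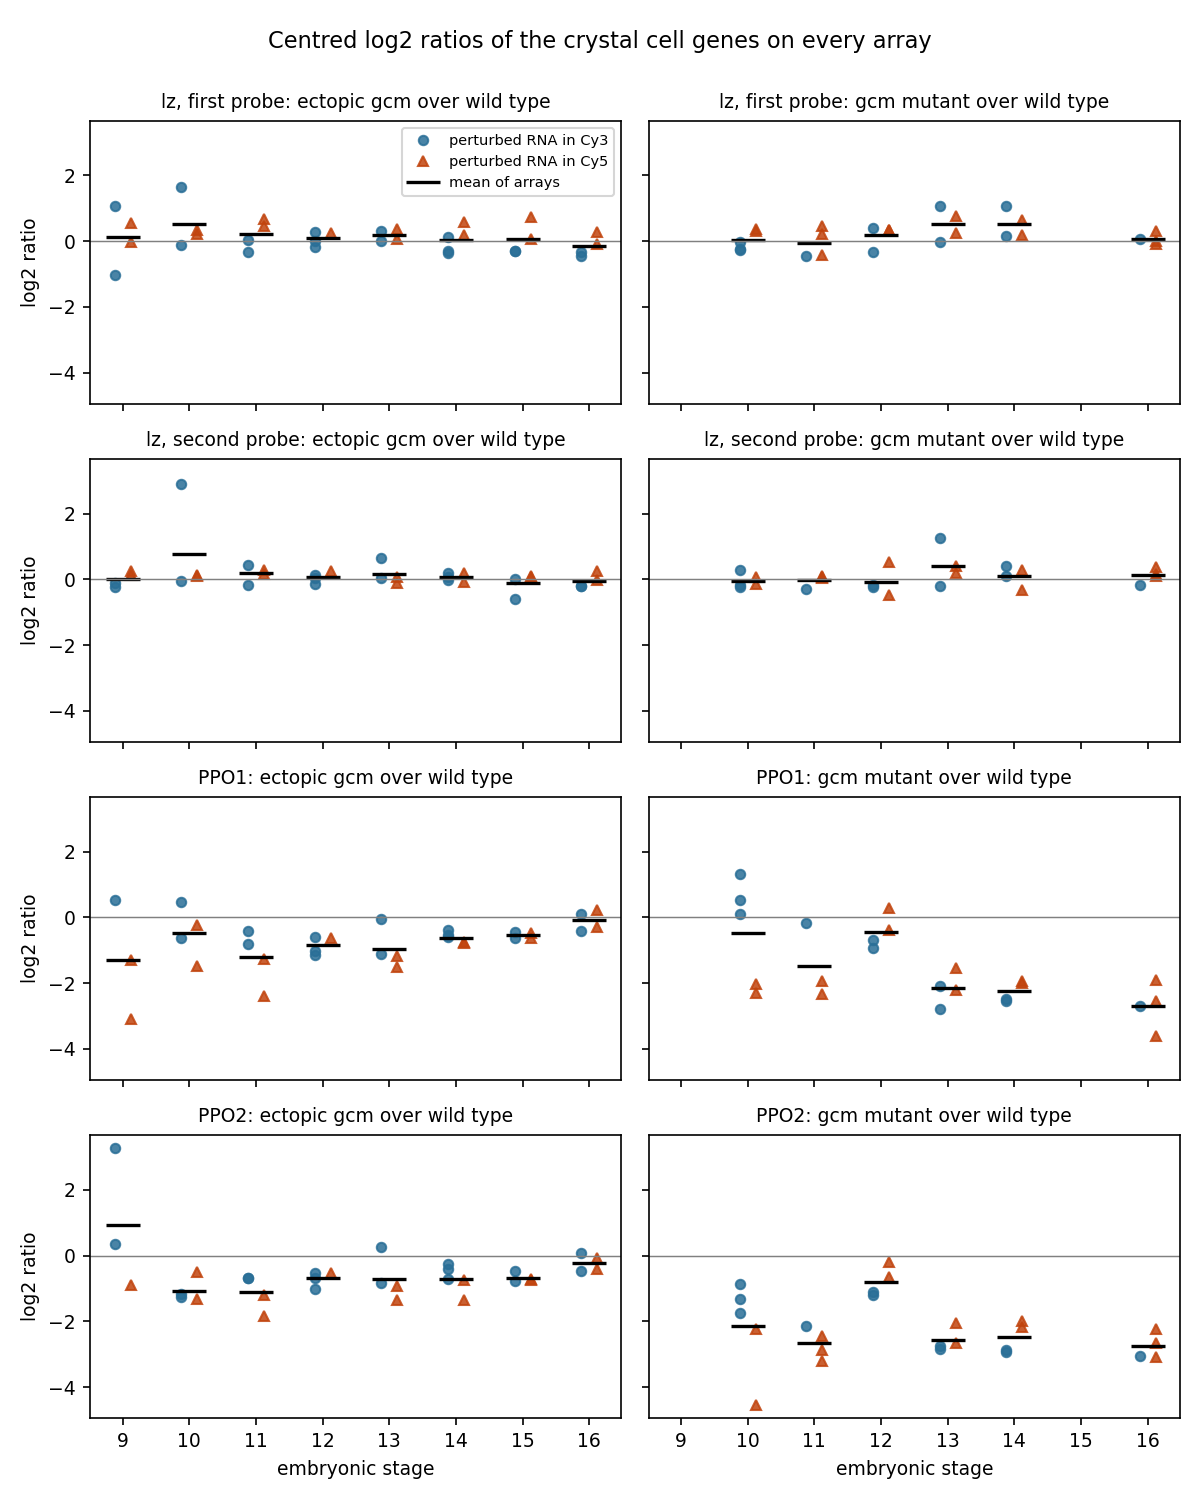
Centred log2 ratio of perturbed over wild type (vertical axis) by embryonic stage (horizontal axis) for both lz probes, PPO1 and PPO2, with ectopic gcm (left) and in gcm mutants (right). Each point is 1 array, circles with the perturbed RNA in Cy3 and triangles in Cy5, and bars are the means of the arrays. With dyes as labelled, PPO2 lies below 0 on all 25 mutant arrays, with the mean of stage 12 nearest to 0, and both lz probes scatter around 0.

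PPO2 encodes a prophenoloxidase that crystal cells store in crystalline form. At stage 10 its log2 ratios in the mutants were -0.88, -1.32, -1.76, -4.55 and -2.25. At stage 11 they were -2.15, -3.20, -2.44 and -2.86. All 9 arrays of these early stages lay below 0, and the value of -4.55 was the lowest of the whole experiment. That value rests on 1 spot, since the repeat spot was listed at 0, and without its array the stage 10 fit was -1.50 (adjusted p = 0.00179). The fitted ratio was -2.16 ± 0.33 (SE, n = 5, adjusted p = 8.43e-06) at stage 10 and -2.63 ± 0.38 (n = 4, adjusted p = 2.43e-06) at stage 11.

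At stage 12 the mutant ratios of PPO2 were -1.21, -1.10, -0.66 and -0.21, all below 0 and all above those of stage 11. The stage 12 fit of -0.79 ± 0.37 (n = 4) did not pass the threshold (adjusted p = 0.216), but with repeat spots held to the SD limit of 0.333 it was called lower (-0.95, adjusted p = 0.000369). The ratio of gcm was also nearest to 0 at this stage. Replicate 4 gave the value closest to 0 for PPO2. The dye orientation of that array is doubtful from its correlations with the other arrays, and without it the stage 12 ratio of PPO2 was -1.02 (adjusted p = 0.159).

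From stage 13 on, PPO2 was again low on every mutant array. Its ratios were -2.75, -2.84, -2.67 and -2.05 at stage 13 and -2.93, -2.88, -2.18 and -1.98 at stage 14. At stage 16 they were -3.06, -3.09, -2.65 and -2.23. The fits were -2.58 (adjusted p = 3.82e-06), -2.49 (adjusted p = 4.67e-05) and -2.73 (adjusted p = 3.39e-06). No array of these stages overlapped with stage 12. Whether stage 12 alone differs from the stages before or after it was not tested, and the share of all probes so separated is not given.

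Over the 6 mutant stages, PPO2 averaged -2.23 ± 0.15 (SE, n = 25 arrays, 95% interval -2.53 to -1.93, adjusted p = 6.68e-16). This was the second lowest average among 15025 tested probes, of which 13.8% were called lower. PPO2 lay below 0 on 25 of 25 arrays, with the doubtful dye orientation of stage 12 replicate 4 taken as labelled. At single stages, PPO2 was called lower at 5 of 6. The share of tested probes called lower was 2.44% at stage 10, 5.79% at stage 11, 2.91% at stage 12, 3.71% at stage 13, 0.746% at stage 14 and 1.59% at stage 16.

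PPO1 encodes the other prophenoloxidase of embryonic crystal cells, which is soluble and quickly released. At stage 10 its mutant ratios split by dye. They were 1.33, 0.09 and 0.54 on the 3 arrays with mutant RNA in Cy3, and -2.02 and -2.30 on the 2 arrays with mutant RNA in Cy5. The fit of -0.52 ± 0.35 (n = 5, adjusted p = 0.585) was not called. At stage 11 the Cy3 array gave -0.17 and the measured Cy5 arrays -1.94 and -2.33, again apart by dye, and the call there (-1.40, n = 3, adjusted p = 0.0472) was lost without replicate 3 (adjusted p = 0.16) or replicate 4 (adjusted p = 0.327). It was also lost without replicate 2 (adjusted p = 0.061), which had no PPO1 value but enters the fit of other probes.

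At stage 12 the mutant ratios of PPO1 were -0.93, -0.70, -0.38 and 0.28, and the fit of -0.43 was not called (adjusted p = 0.631). The value of 0.28 came from replicate 4, the array of doubtful dye orientation. Like PPO2, PPO1 thus lay nearer to 0 at stage 12 than at the stages after it. It was -2.09, -2.78, -2.21 and -1.53 at stage 13, and -2.49, -2.53, -2.0 and -1.94 at stage 14. At stage 16 it was -2.68, -3.60, -2.54 and -1.92. All 12 arrays of these late stages lay below the 4 arrays of stage 12, in both dye orientations. This difference was not tested for stage 12 alone, and the share of all probes so separated is not given. The fits were -2.15 ± 0.39 (n = 4, adjusted p = 0.000168) at stage 13, -2.24 (adjusted p = 0.000565) at stage 14 and -2.56 (adjusted p = 4.23e-05) at stage 16.

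Averaged over the 6 mutant stages, PPO1 was at -1.55 ± 0.16 (SE, n = 24 arrays, 95% interval -1.88 to -1.22, adjusted p = 4.26e-10), lower on 20 of 24 arrays and 21st from the lowest of the tested probes. Its fitted ratio was lower at the late than at the early mutant stages. Without intensities it cannot be read whether PPO1 was above background at the early stages. Stages 13, 14 and 16 together were 1.53 ± 0.33 (SE) below stages 10 to 12 on the log2 scale (adjusted p = 0.00199), where 1.6% of tested probes were called lower. On arrays left uncentred this difference was -0.95 and was not called (adjusted p = 0.071). PPO2 had a difference of -0.74 ± 0.30 in the same comparison, which was not called (adjusted p = 0.145), and it was called without replicate 4 of stage 10, the array at -4.55 (-0.96, adjusted p = 0.0161). Whether PPO1 and PPO2 differ in this was not tested.

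The GFP balancer changed between stages 13 and 14, inside the late group. Stage 13, with the balancer of the earlier stages, had -2.15 for PPO1 and -2.58 for PPO2, beside -2.24 and -2.49 at stage 14 and -2.56 and -2.73 at stage 16. The part of the balancer in these values was not tested.

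With ectopic gcm, the stage means of PPO2 lay below 0 at every stage but the first. Stage 9 gave 3.28, 0.35 and -0.89 on 3 measured arrays. The value of 3.28 rests on 1 spot, since the repeat spot was listed at 0, and comes from an array that lacked 49.6% of the probes. At stage 10 the ratios were -1.27, -1.17, -1.33 and -0.50, and at stage 11 they were -0.68, -0.68, -1.85 and -1.19. All 8 arrays of these stages lay below 0.

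At the middle stages, PPO2 with ectopic gcm had -0.69, -1.02, -0.52 and -0.55 at stage 12 and -0.84, 0.25, -0.91 and -1.35 at stage 13. At stage 14 it had -0.72, -0.42, -0.27, -1.36 and -0.74. Stage 15 gave -0.77, -0.48, -0.72 and -0.76, and stage 16 gave -0.46, 0.07, -0.40 and -0.07. The stage 16 values lay closest to 0, and those of stage 15 lay close together.

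The PPO2 average over the 8 stages of ectopic gcm was -0.57 ± 0.13 (SE, n = 32 arrays, 95% interval -0.83 to -0.30, adjusted p = 0.000734), with 28 of 32 arrays below 0. Of 14780 tested probes, 13.6% were called lower in this average, and PPO2 was 349th from the lowest. Without the stage 9 arrays, an alternative chosen after seeing the data, the average was -0.75.

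PPO1 was also lower with ectopic gcm. Its ratios were 0.53, -3.09 and -1.29 at stage 9 and 0.48, -0.62, -1.49 and -0.23 at stage 10, with the value of -3.09 from 1 spot. At stage 11 they were -0.42, -0.80, -2.40 and -1.25, and at stage 12 -1.01, -1.13, -0.60 and -0.63. The arrays above 0 belonged to stages 9, 10 and 16, and every PPO1 value of stages 11 to 15 was negative.

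At stage 13 PPO1 had -1.12, -0.05, -1.17 and -1.50, and at stage 14 it had -0.59, -0.38, -0.55, -0.79 and -0.75. Stage 15 gave -0.62, -0.46, -0.48 and -0.62, the tightest group, and stage 16 gave -0.43, 0.12, -0.30 and 0.24. Over all 8 stages PPO1 averaged -0.77 ± 0.14 (SE, n = 32 arrays, 95% interval -1.05 to -0.48, adjusted p = 2.79e-05), below 0 on 28 of 32 arrays and 59th from the lowest.

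No single stage of ectopic gcm passed the limma threshold for PPO1 or PPO2, and 4 stages each had an unadjusted p under 0.05, all with lower values. The lowest adjusted p was 0.0899 for PPO1, at stage 11, and 0.0949 for PPO2, at stage 10. The share of probes called in either direction was 9.37% at stage 9, 4.35% at stage 10, 2.9% at stage 11, 2.06% at stage 12, 3.15% at stage 13, 1.58% at stage 14, 0.481% at stage 15 and 0.222% at stage 16. When only probes whose repeat spots agreed within the authors' SD limit were kept, array by array, 9 of these single-stage values were called lower, 4 for PPO1 and 5 for PPO2, all at stages 11 to 15. Late minus early stages gave 0.40 ± 0.28 for PPO1 (adjusted p = 0.628) and -0.05 ± 0.26 for PPO2 (adjusted p = 0.966), with 1.36% of probes called in that comparison.

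The difference between the experiments was itself tested over the 6 stages they share. PPO2 was 1.45 ± 0.21 higher on the log2 scale with ectopic gcm than in the mutants (95% interval 1.03 to 1.88, 2.73-fold, adjusted p = 1.58e-06), and PPO1 was 0.82 ± 0.23 higher (adjusted p = 0.00846). Of the tested probes, 11% were called higher in this direction. The wild types differ between the experiments, so a difference between the wild types and one between the perturbations cannot be told apart. On uncentred arrays PPO1 gave 0.70 and was not called (adjusted p = 0.153).

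**Figure D2:**
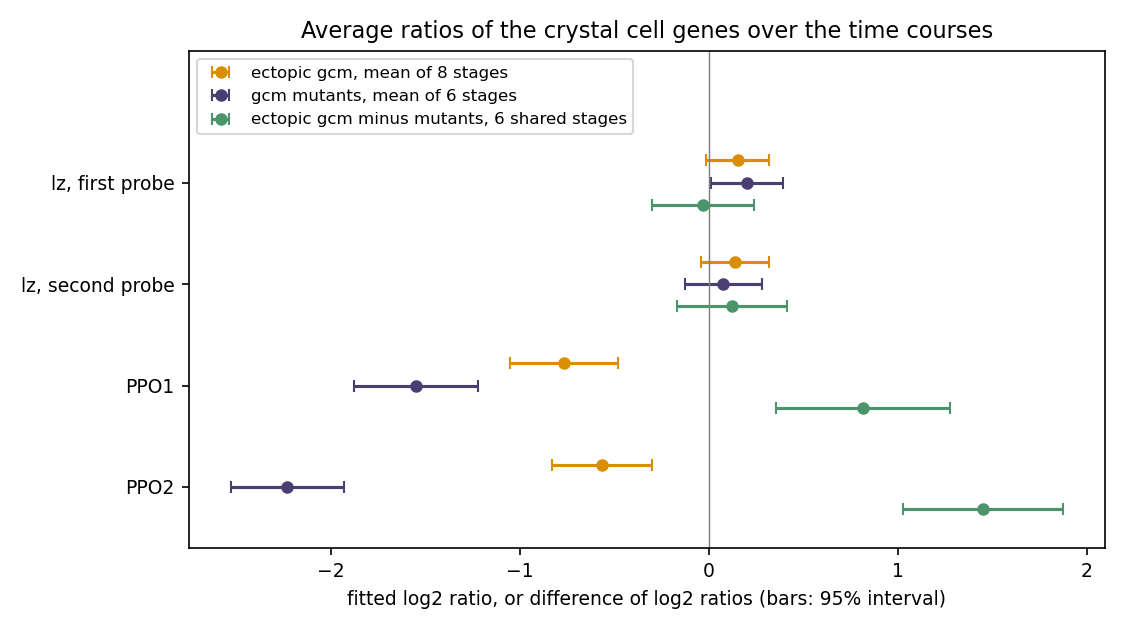
Fitted log2 ratios (horizontal axis) of both lz probes, PPO1 and PPO2, averaged over the 8 stages of ectopic gcm and the 6 stages of gcm mutants, and the difference of the experiments over their 6 shared stages. Points are fitted values and bars are 95% intervals. PPO1 and PPO2 lie below 0 in both averages, the mutant averages lower, and 5 of the 6 lz intervals include 0.

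Both dye orientations gave the same sign for the means of PPO1 and PPO2. In the mutants, PPO2 averaged -2.08 over 11 arrays with mutant RNA in Cy3 and -2.36 over 14 arrays in Cy5, with no array above 0 in either. PPO1 averaged -1.13 in Cy3 (8 of 11 below 0) and -1.88 in Cy5 (12 of 13). With ectopic gcm the values were -0.34 and -0.90 for PPO2 and -0.45 and -1.05 for PPO1. The ratio lay further below 0 with the perturbed RNA in Cy5 in all 4 cases, and the model held a dye term for each experiment.

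PPO1 and PPO2 fell on the same arrays in most cases. Both were below 0 on 20 of the 24 mutant arrays that measured both, and on 26 of 31 arrays with ectopic gcm. In the mutants the ratio of PPO2 lay below that of PPO1 on 22 of 24 arrays, with a median difference of -0.42. With ectopic gcm this was so on 16 of 31 arrays, with a median difference of -0.02. Across the 14 groups of experiment and stage, the fitted ratios of the 2 genes had a Pearson correlation of 0.646 and a Spearman correlation of 0.635, a description of groups that share arrays between the genes.

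The lz probes lay around 0 in both experiments. With ectopic gcm, the first lz probe ranged from -1.04 to 1.66 with a median of 0.07 over 33 arrays, and the second from -0.61 to 2.91 with a median of 0.07. In the mutants the first ranged from -0.45 to 1.08 (median 0.21, n = 25) and the second from -0.47 to 1.26 (median 0.08, n = 25). Every one of these 4 ranges spans 0.

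The averages of lz with ectopic gcm were 0.15 ± 0.08 (SE, 95% interval -0.01 to 0.32, adjusted p = 0.181) at the first probe and 0.14 ± 0.09 (adjusted p = 0.281) at the second. In the mutants they were 0.20 ± 0.09 (95% interval 0.01 to 0.40, adjusted p = 0.112) and 0.08 ± 0.10 (95% interval -0.13 to 0.28, adjusted p = 0.645). Without intensities it cannot be read whether the lz probes were above background, so these intervals do not bound the change of lz RNA. The difference between the experiments was -0.03 at the first probe (adjusted p = 0.914) and 0.12 at the second (adjusted p = 0.627).

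No single stage passed the limma threshold for lz. At an unadjusted p under 0.05, the first probe was higher at 1 stage with ectopic gcm and 2 in the mutants, and the second at 1 and 0. The stage with the highest mean was stage 10 of ectopic gcm, with 1.66, -0.11, 0.34 and 0.22 at the first probe and 2.91, -0.06, 0.12 and 0.13 at the second. Replicate 1 was high at both probes, and the other 3 arrays lay near 0. The repeat spots of replicate 1 disagreed, with deposited Cy5 over Cy3 values of -0.608 and -2.747 at the first probe. At the second probe they were -0.211 and -5.644. The perturbed RNA was in Cy3 there, and both high values rest largely on 1 spot. The fits were 0.53 (adjusted p = 0.259) and 0.77 (adjusted p = 0.0703), and the second probe was called without replicate 2 (1.07, adjusted p = 0.0203) or replicate 3 (1.00, adjusted p = 0.0418), which leave replicate 1 among 3 arrays. It was also called with all 4 arrays when arrays were scaled to one spread (0.77, adjusted p = 0.0336).

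At the other stages of ectopic gcm the first lz probe had 1.07, -1.04, -0.03 and 0.55 at stage 9, -0.32, 0.03, 0.66 and 0.47 at stage 11 and 0.27, -0.17, 0.02 and 0.26 at stage 12. It had 0.32, -0.01, 0.38 and 0.07 at stage 13 and -0.29, 0.12, -0.35, 0.19 and 0.57 at stage 14. At stage 15 it had -0.30, -0.29, 0.06 and 0.75, and at stage 16 it had -0.32, -0.44, -0.07 and 0.27. Each of these stages held arrays on both sides of 0. By dye, 11 of 18 arrays with the perturbed RNA in Cy3 and 2 of 15 in Cy5 lay below 0 (means -0.009 and 0.31).

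At mutant stage 10 the first lz probe had -0.27, -0.02, -0.23, 0.37 and 0.31, and at stage 11 it had -0.45, -0.40, 0.47 and 0.21. At stage 12 it had -0.32, 0.42, 0.35 and 0.36, and at stage 16 it had 0.07, -0.07, 0.01 and 0.30. At stages 10 and 11, where PPO2 was below 0 on all 9 arrays, lz was below 0 on 5 of them.

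The mean of lz in the mutants was highest at stage 13, with 1.08, -0.01, 0.25 and 0.76 at the first probe and 1.26, -0.21, 0.40 and 0.20 at the second. The value of 1.08 rests on 1 spot. With repeat spots held to the SD limit the second probe was called higher at this stage (0.31, adjusted p = 0.0293). At stage 14 the first probe had 0.16, 1.06, 0.19 and 0.64, the only group in which all its mutant arrays lay above 0, while the second had 0.11, 0.39, 0.28 and -0.33. Both PPO genes were low on the same arrays. The late minus early difference in the mutants was 0.30 (adjusted p = 0.407) and 0.26 (adjusted p = 0.524) at the 2 probes, and with ectopic gcm it was -0.22 and -0.23 (adjusted p = 0.659 and 0.657). The 2 probes had the same sign on 26 of 33 arrays with ectopic gcm and 17 of 25 mutant arrays, and differed by a median of 0.28 and 0.22 in size.

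Other genes of the crystal cell list were read beside these 3. Of its 11 genes 10 were tested, and in the mutants 6 were called lower and none higher, with a median of -0.71 against 0.001 for all tested probes, of which 13.8% were called lower and 13.9% higher. At an unadjusted p under 0.05, 3 were higher, and without the 3 arrays lacking over 40% of probes, an alternative chosen after seeing the data, peb (0.16) and klu (0.19) were called higher. Both were also called higher with repeat spots held to the SD limit. In that setting 0 genes of the list were called lower, and none of the 6, PPO1 and PPO2 among them, was tested. On uncentred arrays 5 were called lower, without CG9119. The list holds PPO1 and PPO2 themselves. The other 4 were fok, which is known from Drosophila crystal cells (-1.54 ± 0.16 SE, adjusted p = 1.2e-10), Men, which encodes malic enzyme (-0.85, adjusted p = 2.5e-10), CG10467 (-0.82, adjusted p = 2.86e-05) and CG9119 (-0.60, adjusted p = 0.000862). Not called were lz, the zinc finger factor genes peb (0.13, adjusted p = 0.0841) and klu (0.16, adjusted p = 0.0826), and CG7860 (-0.05). CG17109 was not tested.

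With ectopic gcm, 5 of the 10 were called lower and none higher, with a median of -0.25 against -0.01 for all tested probes, of which 13.6% were called lower and 14.1% higher. At an unadjusted p under 0.05 there were 6 and 0. Besides PPO1 and PPO2 these were Men (-0.37, adjusted p = 0.000172), CG9119 (-0.33, adjusted p = 0.0408) and klu (-0.23, adjusted p = 0.00194). CG9119 missed the threshold in 16 of the 33 fits that omitted a single array. On uncentred arrays the count was 2, PPO1 and PPO2, and Men (adjusted p = 0.11), CG9119 (0.257) and klu (0.407) were not called. With repeat spots held to the SD limit the count was also 2, and PPO1 and PPO2 were not tested there. Values for fok (-0.28, adjusted p = 0.139), peb (-0.01), CG10467 (-0.01) and CG7860 (-0.18) did not pass. In the direct comparison, PPO1, PPO2, fok, CG10467 and Men were higher with ectopic gcm than in the mutants, and klu was lower (-0.35, adjusted p = 0.00577). The share of all tested probes called higher there was 11%. Outside the fits that omitted a single array, Men lost this call in 2 of 10 alternatives and CG10467 in 1 of 10. PPO1 lost it in 1 of 9 and klu in 1 of 11.

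**Figure D3:**
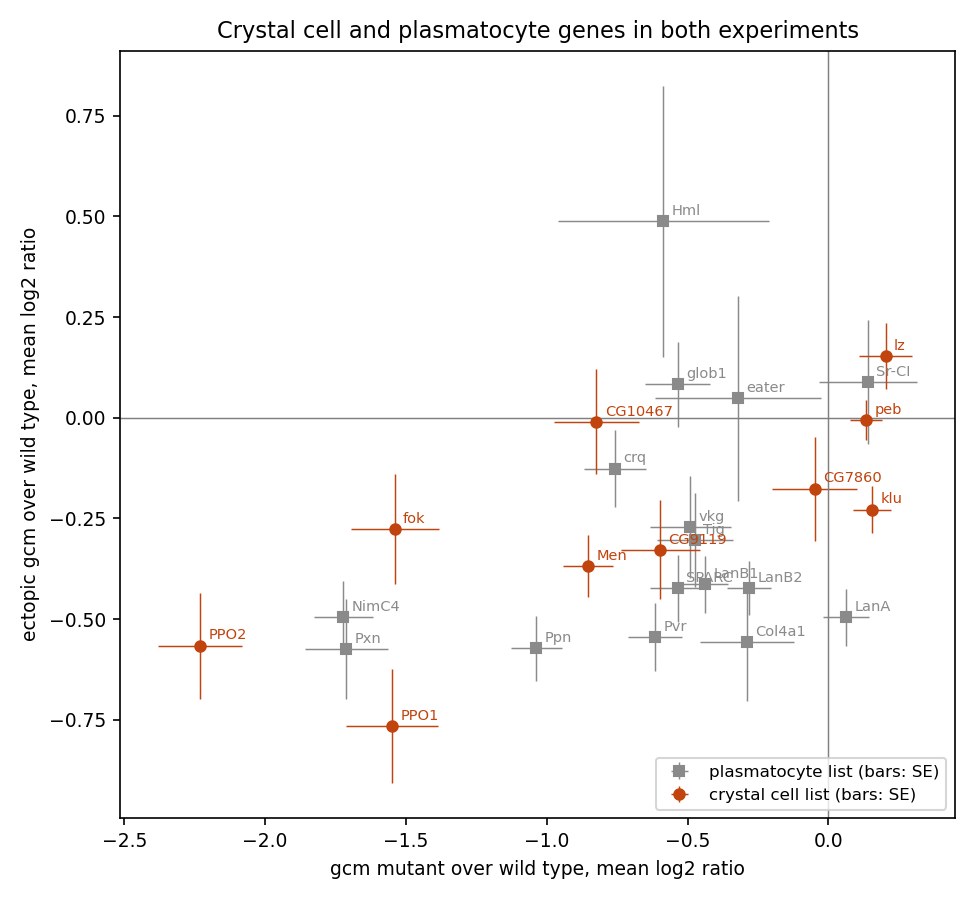
Average log2 ratio in gcm mutants (horizontal axis) against that with ectopic gcm (vertical axis) for the genes of the crystal cell list (circles) and the plasmatocyte list (squares) tested in both. Bars are standard errors. PPO2, PPO1 and fok lie at the left with NimC4 and Pxn, while lz, peb and klu lie right of 0.

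Many, but not all, listed genes of the sister blood cell, the plasmatocyte, moved in the same direction. Of 17 tested genes of the plasmatocyte list, 11 were called lower and none higher in the mutants (median -0.49), and with ectopic gcm 10 of 16 were called lower and none higher (median -0.42). The shares of all probes called lower were 13.8% and 13.6%, and no gene of the list was higher at an unadjusted p under 0.05 in either. On uncentred arrays 5 were called lower in the mutants and 7 with ectopic gcm, and with repeat spots held to the SD limit, where fewer genes were tested, 4 and 2. NimC4, a receptor for apoptotic cells, averaged -1.72 in the mutants and -0.50 with ectopic gcm. Pxn, the extracellular matrix peroxidase peroxidasin, had -1.71 and -0.58, and Ppn, the matrix protein papilin, had -1.04 and -0.57. All 6 of these values were called, with adjusted p at or below 0.000266. Not called in the mutants were Hml (-0.59), eater (-0.32), NimC1 (-0.03), Sr-CI (0.14), LanA (0.06) and Col4a1 (-0.29). With ectopic gcm NimC1 was not tested. Hml (0.49), eater (0.05), Sr-CI (0.09), crq (-0.13), vkg (-0.27) and glob1 (0.08) were not called there. These uncalled genes were named after their values were seen.

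In the mutants the median of the plasmatocyte list was -0.71, -0.82, -0.49 and -0.61 at stages 10 to 13, then -0.03 at stage 14 and -0.16 at stage 16, where PPO1 and PPO2 had some of their lowest values. With ectopic gcm the list median went from -1.01 at stage 9 to -0.59 at stage 10, -0.29 at stage 15 and 0.13 at stage 16, and both PPO genes also lay nearest to 0 at stage 16 among stages 10 to 16. Without lz, PPO1 and PPO2, the crystal cell list went from a mutant median of -0.57 at stage 13 to -0.007 at stage 16. It was -0.295 at stage 14, and 4 of 8 genes lay below 0 at stage 16. Late minus early in the mutants, Men (1.44, adjusted p = 3.65e-07) and klu (0.56, adjusted p = 0.00624) of that list were called higher. Only PPO1 of the list was called lower. The medians are descriptions, and the part of plasmatocyte number in the PPO ratios was not tested.

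**Figure D4:**
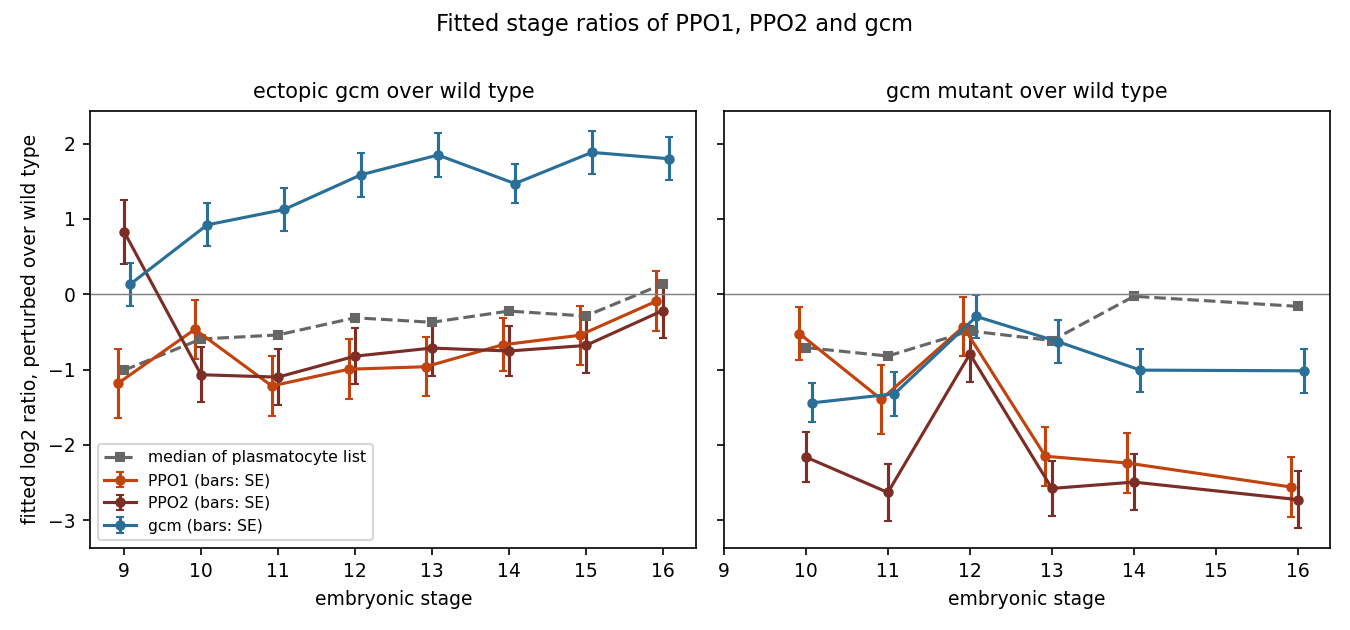
Fitted log2 ratio of perturbed over wild type (vertical axis) by embryonic stage (horizontal axis) for PPO1, PPO2 and gcm, with standard errors, and the median of the plasmatocyte list (dashed), with ectopic gcm (left) and in gcm mutants (right). In the mutants PPO1 and PPO2 lie between -2.15 and -2.73 at stages 13, 14 and 16, where the plasmatocyte median lies between -0.61 and -0.03.

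A list of genes placed upstream of crystal cells was read next, with other RUNX genes beside them. Of 14 listed, 9 were on the array and tested, gcm among them. In the mutants 3 were called lower, gcm, its paralogue gcm2 (-0.59, adjusted p = 0.0372) and Bgb, a partner of RUNX proteins (-0.31, adjusted p = 0.0276). The RUNX genes RunxA (0.28, adjusted p = 0.0103) and RunxB (0.32, adjusted p = 0.00292) were called higher there. These are 3 and 2 of 9, where 13.8% of all probes were called lower and 13.9% higher, and on uncentred arrays they were 1 and 1. With ectopic gcm, ush, which encodes a Friend of GATA protein that restrains crystal cell fate (-0.40, adjusted p = 7.58e-06), and the GATA factor gene srp (-0.17, adjusted p = 0.0132) were lower. Called higher there were gcm, Mlf, whose product stabilises Lozenge (0.35, adjusted p = 0.00118), and the RUNX partner gene Bro (0.28, adjusted p = 0.0226). These are 2 lower and 3 higher of 9, where 13.6% of all probes were called lower and 14.1% higher with ectopic gcm. On uncentred arrays the counts with ectopic gcm went from 2 lower and 3 higher to 0 and 1. In 11 of the 25 fits that omitted a single mutant array, gcm2 missed the threshold. Bgb, RunxA, ush, srp, Mlf and Bro were named after their values were seen.

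Of the melanisation list, 6 of 14 genes were tested in each average. In the mutants Pu, which makes a cofactor of tyrosine hydroxylase, was called lower (-0.75, adjusted p = 0.0322), and the dopa decarboxylase gene Ddc (0.65, adjusted p = 0.0322) and the serpin gene Spn27A, an inhibitor of prophenoloxidase activation (0.24, adjusted p = 0.0411), were called higher. With ectopic gcm 2 were called higher, Spn27A (0.32) and stw (0.72), the latter named after its value was seen. Among all probes 13.8% were lower and 13.9% higher in the mutants, and 14.1% were higher with ectopic gcm. On uncentred arrays the mutant counts of the list were 0 lower and 1 higher, and 1 was higher with ectopic gcm. Of the 25 fits that omitted a single mutant array, Pu missed the threshold in 7, Ddc in 6 and Spn27A in 12.

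Lists of other tissues and of maternal RNA were read for the makeup of the embryos. In the mutants 5 of 7 glial genes were lower, against 13.8% of all probes, with Gs2, glutamine synthetase, at -0.56, Nrx-IV at -0.50 and wrapper at -0.49, the last a call missed in 14 of those 25 fits. The glial genes repo (0.01, adjusted p = 0.949) and moody (-0.20, adjusted p = 0.213) were not called in the mutants. On uncentred arrays 0 glial genes were called lower in the mutants, with adjusted p of 0.0828 for Gs2, 0.144 for Nrx-IV and 0.296 for wrapper. With ectopic gcm 2 of 7 glial genes were lower and 3 higher, where 13.6% and 14.1% of all probes were. The lower were nrv2 (-0.59) and Nrx-IV (-0.45), and the higher were repo (0.34), loco (0.30) and moody (0.41). All of these but Nrx-IV were named after their values were seen. On uncentred arrays the glial counts with ectopic gcm were 2 and 1. Of 6 fat body genes 1 was lower in the mutants (apolpp, -0.83) and 1 higher (Fbp1, 1.02), where 13.8% and 13.9% of all probes were. With ectopic gcm 1 of 5 fat body genes was lower and 1 higher, where 13.6% and 14.1% of all probes were. In the mutants 0 of 4 muscle genes were called (1 higher at an unadjusted p under 0.05). With ectopic gcm 1 of 5 was lower, against 13.6% of all probes. It was Tm2 at -0.47, a call lost on uncentred arrays. Of the maternal list 7 of 9 genes were higher in the mutants (median 0.79) and 6 of 10 with ectopic gcm (median 0.99), against 13.9% and 14.1% of all probes. With ectopic gcm 1 was lower, gcl (-0.24, adjusted p = 0.00545), named after its value was seen and not called on uncentred arrays. The RNA-binding protein gene smg, needed to clear maternal transcripts, averaged 1.65 and 2.04, and the cell cycle genes plu and gnu averaged 1.44 and 1.58 in the mutants. With ectopic gcm plu averaged 2.04 and gnu 0.16, which was not called. The part of these shifts in the PPO ratios was not tested.

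By stage, the median of the maternal list in the mutants was 1.68 at stage 10, 0.54 at stage 11, 0.65 at stage 12, 1.44 at stage 13, 0.62 at stage 14 and 0.27 at stage 16. PPO2 had -2.16, -2.63, -0.79, -2.58, -2.49 and -2.73 at the same stages. The mutant medians rest on 11 genes at stage 10 and 9 at stage 16, and the part of the maternal shift in the PPO2 ratios was not tested. With ectopic gcm the maternal median lay between 0.48 at stage 9 and 1.39 at stage 10.

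Among 7885 genes with a fit in all 14 groups, those whose ratios ran most like PPO2 were epsilonCOP, a coat protein of Golgi transport (r = 0.923), l(2)SH0834 (0.888), CG44001 (0.881), CG31274 (0.879) and alc (0.877). CG31274 averaged -1.09 in the mutants and 0.17 with ectopic gcm, and epsilonCOP -0.60 and -0.002. The genes most like PPO1 were CG6785 (r = 0.856), CG10467 (0.843), EMC6 (0.819), Membrin (0.812) and CG6443 (0.807), so that CG10467 of the crystal cell list came out as the second.

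For the first lz probe the closest were chif (r = 0.904), Rga (0.857), Cyp4ae1 (0.855), Lpin (0.85) and Pdk1 (0.846), and for the second CG32021 (0.888), Gr64f (0.875), mRpS29 (0.819), Pp1-13C (0.816) and CG13980 (0.81). The 2 lz probes shared none of these 5 names and correlated with each other at 0.737. With PPO1 and PPO2 they correlated between -0.34 and -0.16. These are Pearson correlations over 14 fitted ratios taken from the same arrays, ranked over all 7885 genes, and are given as descriptions.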

How the data were processed

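The authors deposited a log2 ratio, Cy5 over Cy3, for every spot of 58 arrays, in a file with 0 further value columns. Per the series design text, the authors scanned with ScanArray software and quantified with GenePix. They kept arrays by the agreement of repeat spots. The sources used here give neither the background correction nor the normalization. The logarithm was recognised as base 2 by its values.

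Exact zeros and log2 values of 9 or more in size were taken as missing. Both spots of a probe were averaged, arrays were centred on their median, and the labelled dyes set the sign so that perturbed stands over wild type. Within stages before turning, 33 of 35 array pairs of the same orientation correlated positively and 54 of 57 of opposite orientation negatively. Gene names came from the platform annotation, updated to RefSeq through Entrez identifiers.

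All arrays entered 1 linear model per probe, with 14 coefficients for experiment and stage and a dye term per experiment, and with variances moderated in limma 3.58.1 (R 4.3.3 with version 1.17.8 of the data.table package). Two-sided p-values were adjusted by Benjamini and Hochberg over the tested probes of each comparison, and calls needed an adjusted p under 0.05. Testing in a group needed at least 3 arrays and both orientations, and testing in an average needed this in each of its groups. Late minus early means stages 13 onwards against the stages before 13. Figures used Python 3.11.15 and matplotlib 3.10.9.

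The members and gene lists were chosen with earlier results of these data known. Named are the members, gcm, the crystal cell list, up to 3 called genes with the largest mutant average from each other list, or the largest average with ectopic gcm where no mutant average was called, and the 5 genes most correlated with each member. One probe, the one measured on most arrays, stood for a gene. On simulated data with 200 of 14780 probes changed, the average with ectopic gcm recovered 62 of 100 changes of 0.5 and 91 of 100 changes of 1 on the log2 scale, with 3.77% of calls false. The mutant average, simulated on 15025 probes, recovered 42 and 78, with 4% false. In the data far more probes were called (4104 and 4153) than the 200 changed here, so these rates need not hold for the calls reported. Alternatives changed 1 choice at a time, and the closing section gives their effect.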

Additional observations from a re-analysis of the deposited data

Results flagged for a closer look

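PPO2 and PPO1 had effects that differed between the experiments by the test of the difference, with 1.45 for PPO2 and 0.82 for PPO1 on the log2 scale, ectopic gcm minus mutants. PPO1 also differed between mutant stages, late minus early, by -1.53. These tests are given in the report.

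Single arrays stood apart from the others of their group in 5 of 53 groups tested, and chance flags about 1 in 20 groups. PPO2 had -0.48 on replicate 2 of stage 15 with ectopic gcm, a value nearer to 0 than the other 3, which lay close together. The first lz probe had -0.32 on replicate 1 of mutant stage 12. The second lz probe had 2.91 on replicate 1 of stage 10 with ectopic gcm, where the first probe had 1.66 on the same array. Both values rest largely on 1 spot, as the repeat spots disagreed. The second lz probe also had -0.61 on replicate 2 of stage 15 with ectopic gcm and -0.30 on replicate 1 of mutant stage 11.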

How the results depend on the processing

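The averages of PPO1 and PPO2 kept their direction and call in every alternative in which they were tested. With 1 array left out they ranged from -0.86 to -0.66 for PPO1 and from -0.70 to -0.45 for PPO2 with ectopic gcm, and from -1.65 to -1.49 and from -2.29 to -2.15 in the mutants. Neither lz probe was called in an average under any alternative. Both averages of PPO1 and the PPO2 average with ectopic gcm were not tested on probes with repeat spots within the SD limit or on probes measured on every array, and the PPO2 mutant average was not tested on the former. A change of sign among values not called was not counted as a reversal.

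On uncentred arrays PPO1 was not called in gain minus loss (0.70) or in mutant late minus early (-0.95). PPO2 mutant late minus early was called with zeros kept (-0.79) and, with 1 array left out, ranged from -0.96 to -0.64. Calls of PPO1 and PPO2 at single stages of ectopic gcm, 0 in the report, numbered 2 on scaled arrays, 2 with 1 experiment in the fit, 2 with zeros kept, 9 on repeat spots within the SD limit and 3 with array weights. They numbered 2 without the 3 arrays lacking over 40% of the probes, 2 without stage 9 of ectopic gcm, both added after seeing the data, and 0 to 2 with 1 array left out (2 without replicate 1 of stage 9, 1 without replicate 2). Without replicate 2 of stage 9, PPO1 was called lower at that stage (-1.99), and without replicate 4, PPO2 was called higher (1.67). On repeat spots within the SD limit PPO2 was called lower at mutant stage 12 (-0.95). The PPO1 call at mutant stage 11 was lost in 6 of 10 alternatives other than leaving out 1 array.

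Counts of called probes on uncentred arrays were 1854 (ectopic average), 2105 (mutant average), 464 (gain minus loss), 1 (ectopic late minus early) and 2654 (mutant late minus early), and on repeat spots within the SD limit 2012, 1483, 958, 648 and 388. In the report's fit they were 4104, 4153, 2308, 201 and 836. Ectopic late minus early gave 434 on scaled arrays, 401 with 1 experiment, 67 with zeros kept, 560 with array weights, 124 without the 3 sparse arrays, 108 without stage 9 and 120 to 223 with 1 array left out. Mutant late minus early gave 304 with 1 experiment. Replicate numbers did not pair the arrays (median correlation of same-numbered deviations 0.0306 and 0.0252). With a replicate block the PPO2 averages were -0.57 and -2.21 and the PPO1 averages -0.78 and -1.54, and no call of a member's average or difference changed. The ratios carry no intensity, so signal over background could not be read.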
